A study of Mus musculus with 4 samples.

Results

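The nuclear genes that encode the respiratory chain were followed through the immune cells of the mouse lung. They were chosen by symbol, as every gene whose name begins with Nduf and a subunit letter, with Uqcr, with Cox4 to Cox8, or with Atp5. This gave 80 of the 31053 genes counted (79 distinct symbols), of which 37 belong to complex I, 8 to complex III, 18 to complex IV and 17 to complex V. At least 1 unique molecular identifier (UMI, 1 tag for each captured RNA molecule) was found for 77 of them.

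The respiratory chain sits in the inner mitochondrial membrane. Complex I (NADH dehydrogenase, the Nduf genes) takes electrons from NADH, complex III (the Uqcr genes) passes them on to cytochrome c, complex IV (cytochrome c oxidase, the Cox genes) hands them to oxygen, and complex V (ATP synthase, the Atp5 genes) uses the proton gradient built on the way to make ATP. Complexes I, III, IV and V are assembled from subunits of both nuclear and mitochondrial genes. Several Cox and Atp5g subunits exist as isoforms from separate genes, some of which are best known from heart and skeletal muscle or from testis.

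All mice were C57BL/6 with floxed Ift20 alleles, and the study's methods give males of 5 to 10 weeks of age. Ift20 f/f mice served as WT, and Ift20 f/f CD4-cre mice as KO, with Cre made in developing T cells and so also active in cells that later become CD8 T cells. Papain, a protease allergen, was given into the nose at 25 µg on 3 consecutive days and again on day 14, while control mice received DPBS, a buffered saline, and lungs were taken on day 15. Live CD45.2+ cells were sorted and 1 droplet library of the 3′ ends of transcripts was made for each of the 4 groups, from a number of mice that is not given in the sources used here. Values of the 4 libraries are listed as WT and KO after DPBS, then WT and KO after papain, unless named. With 1 library per group there was no replicate, no test was run, and every 95% interval below covers counting error only.

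The libraries held 5863 to 8552 cell barcodes and 53854420 to 75675956 UMIs each, and 25909 of 28805 barcodes were kept. Between 5 and 14 barcodes were shared by any 2 libraries. Cell classes were rebuilt from marker genes and carry the ending -like, which the axis labels leave out. The sort marker Ptprc (CD45) was present in all 6 main classes at 405 CPM (CPM is the UMI count of a gene scaled to the summed UMIs of the class, in parts per 10 to the power 6) or more. Ift20 in CD4 T-like cells was at 55.7 CPM in WT and 21.6 CPM in KO after DPBS, and at 49.99 and 19.5 CPM after papain, so the genotype labels held in the T cells, while B-like, alveolar macrophage-like and monocyte-like cells ranged from 34.4 to 64.6 CPM over all 4 libraries.

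The share of a cell's RNA that came from the respiratory chain genes differed more than 2-fold between the highest and the lowest lineage. In alveolar macrophage-like cells, the resident phagocytes of the air spaces, the 80 genes together made up 2.01% ± 0.042 (SD over 4 libraries, lowest 1.97%, highest 2.07%) of all UMIs. Natural killer (NK)-like cells followed with 1.86% (1.74% to 1.98%), gamma-delta T-like cells with 1.72%, monocyte-like cells with 1.64% (1.60% to 1.71%) and type 2 innate lymphoid (ILC2)-like cells with 1.63%. CD4 T-like cells had 1.45% (1.35% to 1.53%), conventional dendritic cell (DC)-like cells 1.43%, CD8 T-like cells 1.40% (1.35% to 1.43%) and B-like cells 1.247% (1.236% to 1.255%). Mature DC-like cells were at 1.196% and neutrophil-like cells were lowest at 0.878% (0.809% to 0.928%). Plasma-like cells, with 45 cells in all, ranged from 0.653% to 1.38%. The ranges of alveolar macrophage-like and NK-like cells overlapped slightly, those of CD4 T-like, CD8 T-like and conventional DC-like cells overlapped, and neutrophil-like cells did not overlap with any of the other classes except plasma-like cells.

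**Figure D1:**
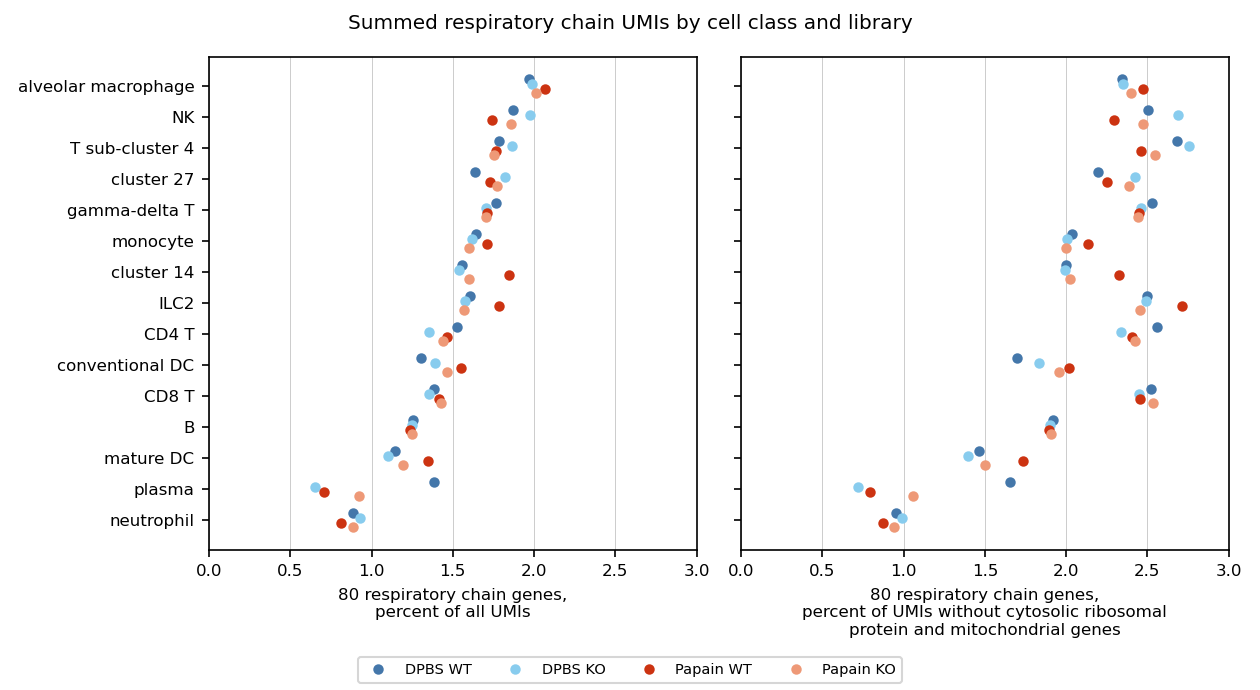
Summed UMIs of the 80 respiratory chain genes as a percent of all UMIs (left) and of UMIs outside the cytosolic ribosomal protein and mitochondrially encoded genes (right), for 15 cell classes and unnamed clusters, with 1 point per library. On the left, alveolar macrophages are at 1.97% to 2.07% and neutrophils at 0.809% to 0.928%, and on the right CD4 T cells and alveolar macrophages overlap.

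Another 3 groups of cells carried no single class name and are given by number. A T sub-cluster (number 4, 721 cells), whose leading genes included Tnfrsf4, Ctla4, Icos, Gata3 and Foxp3, gave 1.79% (1.75% to 1.87%) to the respiratory chain, above the 1.45% of CD4 T-like cells in every library. A Cd4 UMI was found in 65.0% of its cells, which are not part of the CD4 T-like class. The largest sub-clusters of that class, with 1831 and 1320 cells, had Igfbp4 and Lef1 among their leading genes. Cluster 27, with 40 cells and Siglech and Ccr9 among its leading genes, had 1.74% (1.64% to 1.82%), and cluster 14, with 560 cells led by Retnla, C1qa and Mgl2, had 1.64% (1.54% to 1.85%).

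The order of lymphocytes and macrophages depended on what the UMIs were divided by. Cytosolic ribosomal protein genes took 35.3% of UMIs in CD4 T-like cells, 28.3% in B-like cells, 11.5% in alveolar macrophage-like cells and 5.46% in neutrophil-like cells. Divided only by UMIs outside the ribosomal protein and mitochondrially encoded genes, the respiratory chain share was 2.43% in CD4 T-like, 2.49% in CD8 T-like, 2.49% in NK-like, 2.54% in ILC2-like and 2.39% in alveolar macrophage-like cells. It was 2.04% in monocyte-like, 1.91% in B-like and 0.940% in neutrophil-like cells on this scale, so neutrophil-like cells were the lowest of these on both scales. Per cell, without any division, alveolar macrophage-like cells held 372 member UMIs on average, CD4 T-like cells 97.0, B-like cells 64.5 and neutrophil-like cells 31.3, at median depths of 18506, 5825, 4286 and 3217 UMIs per cell.

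The 13 protein genes of the mitochondrial genome were not in proportion to the nuclear ones. For each UMI of the 80 nuclear genes, B-like cells held 5.05 UMIs of the 13 mitochondrial genes (4.95 to 5.29 over the libraries), CD8 T-like cells 4.04, CD4 T-like cells 3.62, alveolar macrophage-like cells 2.21 (2.18 to 2.27), NK-like cells 2.08, monocyte-like cells 1.94 and neutrophil-like cells 1.28 (0.958 to 1.69). B-like and neutrophil-like cells thus stood at the ends of this order. Barcodes with 15% or more mitochondrial UMIs had been left out, which limits the upper end of this ratio.

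Alveolar macrophage-like, CD4 T-like, B-like and neutrophil-like cells stood in this order in each of the 4 complexes. Complex I took 0.587% of UMIs in alveolar macrophage-like cells, 0.413% in CD4 T-like, 0.374% in B-like and 0.254% in neutrophil-like cells. For complex IV these shares were 0.596%, 0.397%, 0.342% and 0.283%, and for complex V 0.620%, 0.475%, 0.393% and 0.254%. Complex III, with the fewest genes, took 0.207%, 0.160%, 0.138% and 0.0865%. Among these 4 classes the ratio of alveolar macrophage-like to neutrophil-like cells was therefore smallest for complex IV.

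Within complex I, Ndufa4, Ndufa6 and Ndufa13 were highest. Ndufa4, a subunit that has also been assigned to cytochrome c oxidase, had 461 CPM in NK-like and 412 CPM in alveolar macrophage-like cells against 257 CPM in CD4 T-like and 70.6 CPM in neutrophil-like cells. Ndufa6, an accessory subunit, went the other way, with 345 CPM in monocyte-like, 284 CPM in CD4 T-like and 213 CPM in alveolar macrophage-like cells. Ndufa13 (GRIM-19) lay between 188 CPM in B-like and 376 CPM in NK-like cells. Core subunits that bind flavin or iron-sulfur clusters were lower, with Ndufv1 at 81.9 CPM, Ndufs1 at 51.5 CPM and Ndufs8 at 93.8 CPM in alveolar macrophage-like cells, and at 13.6, 15.4 and 24.2 CPM in neutrophil-like cells. A few accessory subunits did not share this low level. Ndufa7 was highest in neutrophil-like cells, at 279 CPM against 164 CPM in CD4 T-like and 219 CPM in monocyte-like cells, and Ndufb9 was at 199.7 CPM there and at 200.7 CPM in alveolar macrophage-like cells.

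Complex III was led by Uqcrh, the hinge subunit, at 656 CPM in CD4 T-like, 804 CPM in ILC2-like and 436 CPM in alveolar macrophage-like cells. Uqcrq ranged from 129.6 CPM in B-like to 341 CPM in alveolar macrophage-like cells. Uqcrfs1, the Rieske iron-sulfur protein, ranged from 57.7 CPM in neutrophil-like to 209.5 CPM in monocyte-like cells. Uqcr11, a small subunit, had 320 CPM in alveolar macrophage-like cells and 81.9 to 152 CPM in B-like, CD4 T-like, CD8 T-like, neutrophil-like, NK-like, ILC2-like and monocyte-like cells, and Uqcrb 310 CPM against 31.6 CPM in neutrophil-like cells. The core proteins Uqcrc1 and Uqcrc2 were at 135 and 102 CPM in alveolar macrophage-like cells, below the small subunits Uqcrq, Uqcr11 and Uqcrb in the same cells.

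In complex IV the highest genes were Cox4i1, Cox8a and Cox7a2l. Cox4i1, the common form of subunit 4, had 1103 CPM in alveolar macrophage-like, 904 CPM in monocyte-like, 683 CPM in CD4 T-like and 463 CPM in neutrophil-like cells. Cox8a was at 952 CPM in NK-like, 712 CPM in neutrophil-like, 687 CPM in alveolar macrophage-like and 500.2 CPM in CD4 T-like cells, and was the one of these 3 in which neutrophil-like cells were not below the macrophages. Cox5a, a matrix-side subunit, had 667 CPM in alveolar macrophage-like cells, 373 CPM in monocyte-like cells and 191 to 334 CPM in B-like, CD8 T-like, ILC2-like, CD4 T-like and NK-like cells.

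Complex V was led by Atp5e, the epsilon subunit, which varied least of the 3 (500.1 CPM in neutrophil-like to 824 CPM in NK-like cells). Atp5g2, a gene for subunit c of the membrane ring, was at 541 CPM in alveolar macrophage-like, 530 CPM in CD4 T-like and 66.8 CPM in neutrophil-like cells. Atp5h, of the peripheral stalk, ranged from 215.5 CPM in neutrophil-like to 679 CPM in NK-like cells. The catalytic subunits Atp5a1 and Atp5b were at 479 and 566 CPM in alveolar macrophage-like cells and at 86.3 and 156 CPM in neutrophil-like cells. Atp5s, which is known as a factor that couples the enzyme, was the lowest of the complex V genes with 100 UMIs or more, at 7.72 CPM in B-like, 4.30 CPM in alveolar macrophage-like and 0.199 CPM, from 1 UMI, in neutrophil-like cells.

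**Figure D2:**
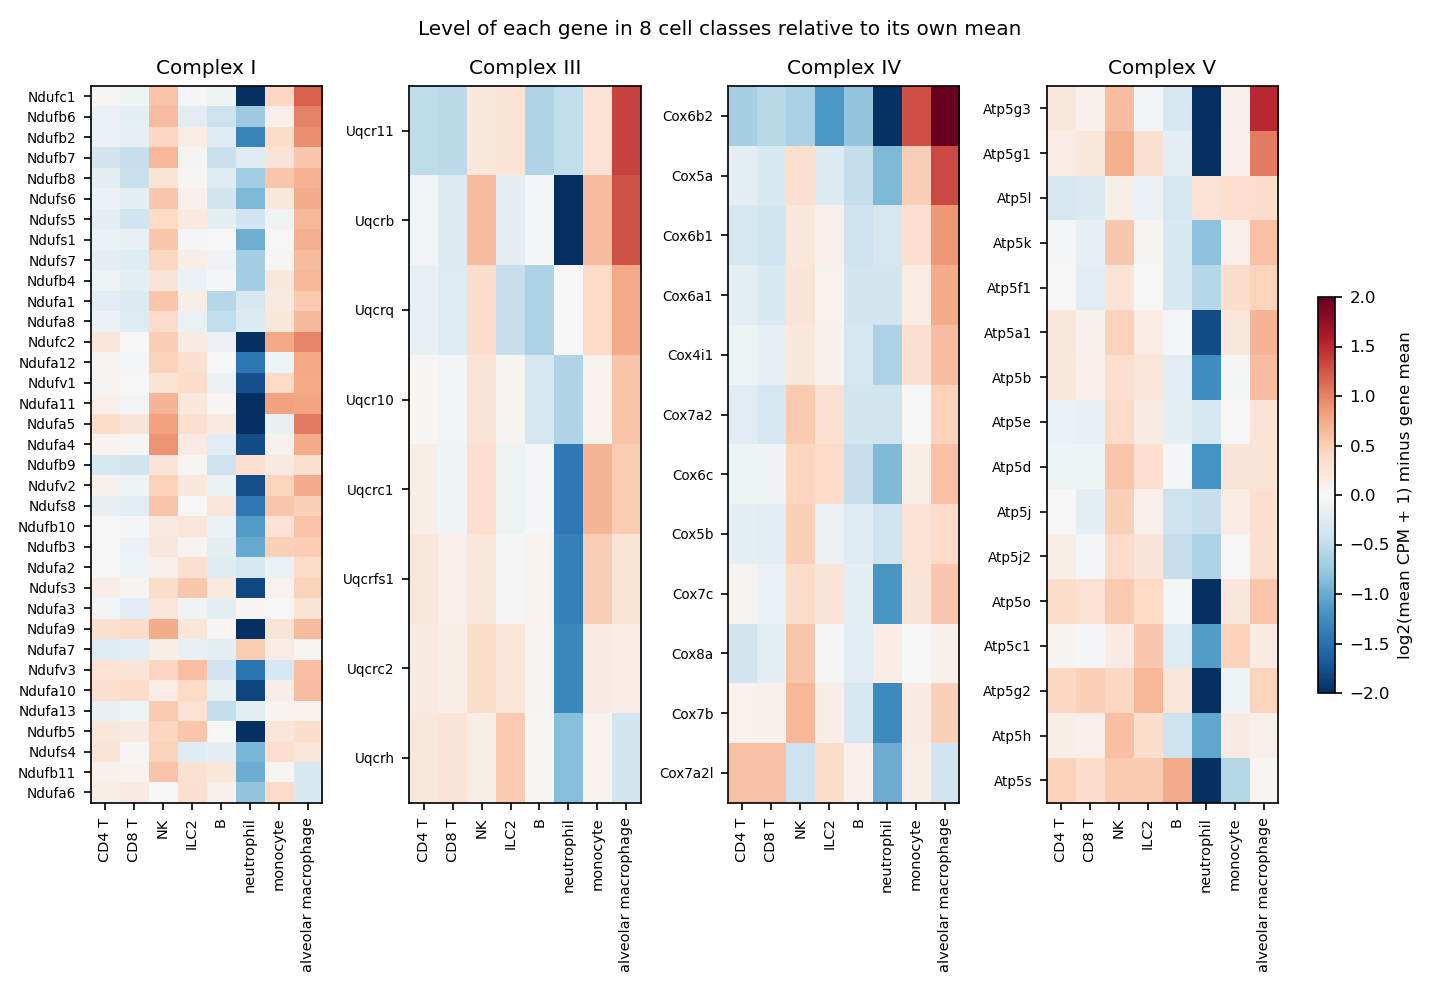
Level of respiratory chain genes with at least 1000 UMIs in 8 cell classes, as log2(mean CPM over 4 libraries + 1) minus the gene's own mean over the 8 classes, in 4 panels by complex and sorted by the difference between alveolar macrophages and CD4 T cells. Most genes are red in alveolar macrophages and blue in neutrophils, and Cox7a2l, Uqcrh and Ndufa6 are higher in CD4 T cells than in alveolar macrophages.

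The isoform genes of complex IV separated lineages most sharply. Cox6b2, the form of subunit 6b known from testis, lies at chr7:4751792-4753094 on the minus strand (mm10). In alveolar macrophage-like cells it had 90.8 and 95.8 CPM after DPBS and 75.7 and 85.6 CPM after papain. Cluster 14 followed with 34.2, 28.1, 37.1 and 19.99 CPM in the same order, and monocyte-like cells with 8.75, 6.53, 11.7 and 7.67 CPM. CD4 T-like, CD8 T-like and B-like cells had 0.783 to 2.91 CPM, and none of 815 neutrophil-like cells held a Cox6b2 UMI, which makes the alveolar macrophage-like level at least 84.8-fold higher, with 3 UMIs over the 4 libraries as the floor. Levels in the 3 myeloid classes did not overlap, and all lay above every lymphocyte library named here.

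Cox6b2 was found as 1 UMI or more in 60.6% of 4310 alveolar macrophage-like cells, and in 0.643% of B-like and 0.887% of CD4 T-like cells, at median depths of 18506, 4286 and 5825 UMIs. With each cell thinned to 1500 UMIs, and 68, 70 and 1 shallower cells left out, the shares were 11.7%, 0.183% and 0.193%. The common form Cox6b1 was detected throughout, at 570.4 CPM in alveolar macrophage-like, 393 CPM in monocyte-like, 247 CPM in neutrophil-like, 243 CPM in CD4 T-like and 233 CPM in B-like cells. Cox6b2 made up 13.2% of the UMIs of the pair in alveolar macrophage-like cells (11.8% to 14.4%), 7.30% in cluster 14, 2.15% in monocyte-like and 0.549% in B-like cells.

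The 250 bases upstream of the RefSeq start (GRCm38.p6) are shown for this pair because both genes lie on the minus strand of chromosome 7, one detected in all lineages and the other mainly in macrophages. Capitals mark matches, on either strand, to GCGCATGC (NRF1), CCGGAAG (GABP), AAGATGGC (YY1), GGGCGG (the GC box), CCAAT or TATAAA.
Cox6b1 (chr7:30626115-30626364): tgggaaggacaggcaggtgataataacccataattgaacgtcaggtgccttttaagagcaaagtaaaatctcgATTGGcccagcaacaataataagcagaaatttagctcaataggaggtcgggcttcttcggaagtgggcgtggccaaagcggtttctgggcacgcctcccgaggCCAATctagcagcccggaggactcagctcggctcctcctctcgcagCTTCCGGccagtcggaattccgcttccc
Cox6b2 (chr7:4753095-4753344): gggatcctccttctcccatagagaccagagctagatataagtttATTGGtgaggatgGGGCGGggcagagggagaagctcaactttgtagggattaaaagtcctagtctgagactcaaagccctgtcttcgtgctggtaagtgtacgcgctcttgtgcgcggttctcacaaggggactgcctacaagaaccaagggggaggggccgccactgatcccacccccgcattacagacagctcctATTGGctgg
The Cox6b1 window held a GABP match and CCAAT matches, and the Cox6b2 window a GC box and CCAAT matches.

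Across the family, 63 of the 80 genes had a promoter window in RefSeq, read from 250 bases before to 50 after the start. The NRF1 letters were in 14.3% of these windows against 3.05% of 27025 genes in all, GABP in 22.2% against 9.93%, and YY1 in 14.3% against 3.19%. The GC box (38.1% against 38.2%), CCAAT (42.9% against 41.1%) and TATAAA (11.1% against 15.7%) were not more frequent than over all genes by more than 2 percentage points. NRF1, GABP and YY1 are known regulators of nuclear genes for mitochondria, and a match of letters here is a description, not a binding site.

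Cox6a2, the heart and skeletal muscle form of subunit 6a at chr7:128205435-128206387 on the minus strand, had its highest level in cluster 27. Its level there was 927 CPM in the 8 cells of WT and 2204 CPM in the 2 cells of KO after DPBS, and 1241 CPM in 20 and 852 CPM in 10 cells after papain, with 570 UMIs in 38 of 40 cells. All 40 cells also held Siglech, the plasmacytoid DC lectin, with 909 UMIs, and Bst2, Tcf4 and Ccr9 in 40, 40 and 38 cells. None of the 7 heart muscle genes Myh6, Tnnt2, Actc1, Myl7, Tnni3, Nppa and Myl4 had a UMI in these cells. Cox6a2 supplied 84.7% of the Cox6a UMIs in cluster 27 (77.5% to 94.3%), against a mean of 1.22% in alveolar macrophage-like cells, 3.21% in cluster 14 and 3.70% in plasma-like cells, the highest of the other means. The cluster was left without a cell type name because it scored for conventional DC as well as plasmacytoid DC markers, and 89 Cd79a UMIs of B cells were found in 7 of its cells. Cox6a2 was among its leading genes but not among the genes used for clustering.

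**Figure D3:**
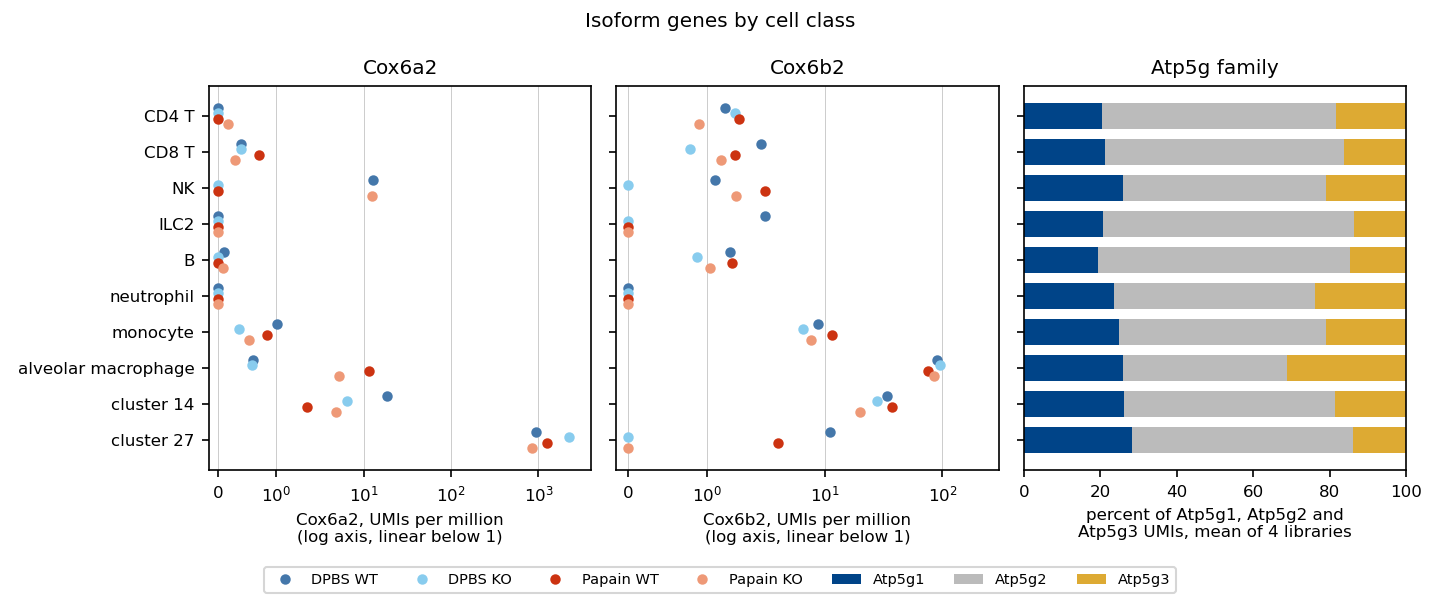
Cox6a2 (left) and Cox6b2 (middle) in CPM, on a log axis that is linear below 1, with 1 point per library, and the share of Atp5g1, Atp5g2 and Atp5g3 among their summed UMIs (right, stacked bars from 0 to 100, means of 4 libraries) in 10 classes and clusters. Cox6a2 reaches 852 to 2204 CPM in cluster 27, Cox6b2 is highest in alveolar macrophages at 75.7 to 95.8 CPM, and Atp5g3 takes its largest share, 31.05%, in alveolar macrophages.

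Isoforms of subunits 7a and 8 gave smaller contrasts. Cox7a1, the muscle form of subunit 7a, had 8.31 to 10.5 CPM in the 4 alveolar macrophage-like samples and 3.32 CPM on average in cluster 14, against means of 0.199 to 1.39 CPM in CD4 T-like, CD8 T-like, NK-like, ILC2-like, B-like, neutrophil-like and monocyte-like cells. Cox7a2 and Cox7a2l (also called SCAF1) divided the rest. Cox7a2l was at 656 to 724 CPM in the 4 CD4 T-like samples and at 338 to 370.4 CPM in alveolar macrophage-like cells, with no overlap. It supplied 77.0% of the Cox7a UMIs in CD8 T-like, 75.8% in CD4 T-like, 71.1% in B-like and 66.3% in monocyte-like cells, and 53.4% in neutrophil-like, 49.2% in alveolar macrophage-like and 48.1% in NK-like cells. NK-like cells were thus nearer to the macrophages than to gamma-delta T-like (64.6%) or ILC2-like (64.8%) cells. Hardly any signal was found for Cox4i2 (45 UMIs, 35 of them in alveolar macrophage-like cells), Ndufa4l2 (5 UMIs) and Cox8b (1 UMI), and Cox7b2, Cox8c and a second Atp5o locus named for a readthrough to Donson had 0 UMIs in 25909 cells.

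Subunit c of ATP synthase is made from Atp5g1, Atp5g2 and Atp5g3, which encode the same mature peptide. Atp5g3 had 366, 396, 424 and 375 CPM in alveolar macrophage-like cells, and 171, 133, 178 and 156 CPM in CD4 T-like cells. Atp5g2 barely differed between these classes (532 to 552 CPM and 492 to 567 CPM). The macrophages thus drew 31.05% of their subunit c UMIs from Atp5g3 (29.3% to 32.8%), 43.1% from Atp5g2 and 25.9% from Atp5g1, while CD4 T-like cells had 18.4%, 61.2% and 20.4%, and B-like cells 14.8%, 65.7% and 19.5%. Atp5g2 has 2 annotated pseudogene copies with near-identical 3′ ends, so its own UMIs are less certain than those of Atp5g1 and Atp5g3.

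The upstream windows of Atp5g2 and Atp5g3, of which the first took a smaller and the second a larger share in the macrophages than in CD4 T-like cells, are given with the same marks.
Atp5g2 (chr15:102671048-102671297): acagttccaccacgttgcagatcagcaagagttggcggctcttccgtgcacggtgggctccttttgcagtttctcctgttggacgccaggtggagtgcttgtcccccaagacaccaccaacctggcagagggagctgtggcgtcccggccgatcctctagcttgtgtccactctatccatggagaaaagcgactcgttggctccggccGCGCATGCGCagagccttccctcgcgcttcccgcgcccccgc
Atp5g3 (chr2:73911327-73911576): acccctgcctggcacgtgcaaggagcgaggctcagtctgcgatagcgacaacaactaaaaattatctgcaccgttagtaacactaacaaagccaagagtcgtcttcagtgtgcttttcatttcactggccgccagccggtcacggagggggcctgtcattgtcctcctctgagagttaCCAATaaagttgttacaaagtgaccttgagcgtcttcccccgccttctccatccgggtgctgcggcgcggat
The Atp5g2 window held overlapping NRF1 matches on both strands, and the Atp5g3 window a single CCAAT.

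The lineages were then compared in pairs, gene by gene, taking the mean of the 4 libraries. A gene was counted where it differed at least 2-fold with no overlap between the 4 values of each class, among genes with at least 100 UMIs in the 2 classes together. The classes of 1 library share its preparation, and the 4 libraries are 4 conditions, so these are descriptions. The summed genes were higher in alveolar macrophage-like than in CD4 T-like cells by a log2 ratio of 0.48 ± 0.077 (SD over 4 libraries), with 0.37 and 0.55 after DPBS and 0.50 and 0.49 after papain. Of 74 genes tested, 11 were counted as higher in the macrophages and 0 as lower, where 30.4% and 14.7% of all 11312 genes were. Of the 74, 66 had a ratio above 0, and their median was 0.62, beside 0.32 for all genes.

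The 11 were Cox6a2, Cox6b2, Cox7a1, Uqcr11, Cox5a, Uqcrb, Atp5g3, Cox6b1, Ndufc1, Ndufb6 and Ndufb2. Cox6b2 led with a log2 ratio of 5.88, Cox7a1 had 3.89, Uqcr11 1.88 and Cox5a 1.52, and for Cox6a2, with 1 UMI in CD4 T-like cells, no ratio is given. These 3 isoform genes entered the count through their macrophage UMIs alone. Lowest in the macrophages relative to T cells were Cox7a2l at -0.97, Uqcrh at -0.59 and Atp5s at -0.51. With the denominator that leaves out ribosomal protein and mitochondrial genes, the ratio of the summed genes turned to -0.024 (-0.13 to 0.041 over the libraries), so the direction of this contrast depended on the denominator.

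Monocyte-like cells exceeded B-like cells by 0.40 ± 0.049 on the log2 scale (0.36 to 0.47). Here 2 of 72 genes were counted as higher (18.9% of all genes) and 1 as lower (18.3%). Cox6b2 (2.75) and Uqcrq (1.02) were the 2 higher ones, Cox5a fell just short at 0.96, and Atp5s at -1.65 was the lower one, ahead of Ndufa5 at -0.35 and Atp5g2 at -0.33. Without the ribosomal and mitochondrial UMIs the ratio of the sums was 0.10 (0.066 to 0.17).

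Neutrophil-like cells lay below alveolar macrophage-like cells by -1.20 ± 0.11 on the log2 scale (-1.35 to -1.10). The count was 52 of 72 genes lower and 0 higher, where 49.6% and 11.9% of all 10244 genes were. The ratios were uneven. Ndufa5 at -4.09, Atp5g3 at -3.67, Ndufc2 at -3.57, Ndufa11 at -3.44 and Atp5g1 at -3.43 were far below the median of -1.504, and Cox7a1 rested on 1 neutrophil UMI. In the 4 neutrophil-like samples Ndufa5 had only 2, 3, 11 and 4 UMIs and Ndufc2 5, 8, 18 and 7. Atp5g3 had 14, 8, 53 and 23 UMIs there and Atp5g1 17, 9, 40 and 22. Ndufa7 at 0.46, Cox8a at 0.05 and Ndufb9 at -0.01 were at or above the macrophage level. Between alveolar macrophage-like and neutrophil-like cells, Ndufa5 (17.0-fold), Atp5g3 (12.7-fold) and Ndufc2 (11.9-fold) were far apart, and for Atp5s, with 1 UMI in all neutrophil-like cells, no ratio is given. For all genes the median log2 ratio between these classes was -1.12, and the 815 neutrophil-like cells were the shallowest of the main classes.

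Classes were not uniform inside. Monocyte-like cells of cluster 5, which carry F13a1 and other classical monocyte genes, gave 1.71% to 1.85% of UMIs to the respiratory chain in the 4 libraries, and those of cluster 9, with Treml4 and Ace of nonclassical monocytes, 1.39% to 1.46%, with no overlap. The 2 largest alveolar macrophage-like clusters were at 1.88% to 1.96% and 2.10% to 2.22%. A shallow alveolar macrophage-like cluster (number 18, with Arg1, Mmp12 and Ccl17 among its leading genes) had 2.11% to 2.38%, and its cells were uneven between libraries, with 26 and 80 after DPBS and 146 and 3 after papain.

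Dividing T cells held a larger share of respiratory chain RNA than other T cells. Dividing cells were those of clusters led by cell cycle genes such as Mki67, and since clusters are drawn from the same cells, their values are a description. In CD4 T-like cells the 35, 9, 46 and 19 dividing cells gave 2.54%, 2.33%, 2.30% and 2.49% of their UMIs to the 80 genes, against 1.31%, 1.30%, 1.27% and 1.29% in the other CD4 T-like cells. The groups did not overlap, and the log2 ratio was 0.90 ± 0.063 (0.83 to 0.95). CD8 T-like cells, with 10, 9, 21 and 25 dividing cells, had a ratio of 0.78 (0.72 to 0.83). A high share was not particular to dividing clusters. CD8 T-like sub-cluster 14, led by Ccl5, Gzmb and Gzmk, had 699 CPM of the dividing-cell genes. Its 8, 16, 26 and 21 cells were at 2.03%, 2.01%, 2.03% and 2.05%. All CD8 T-like cells outside the dividing clusters were at 1.32% to 1.35%. T sub-cluster 4 (1.75% to 1.87%) was not counted among the other CD4 T-like cells. The denominator differed too, as cytosolic ribosomal protein genes took 19.5% to 21.1% of UMIs in dividing and 37.0% to 38.3% in other CD4 T-like cells. Without ribosomal protein and mitochondrial genes the ratios were 0.50 (0.42 to 0.57) in CD4 T-like and 0.38 (0.29 to 0.43) in CD8 T-like cells. Dividing alveolar macrophage-like cells differed little, with 0.051 (0.029 to 0.071) and, without those genes, 0.042.

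**Figure D4:**
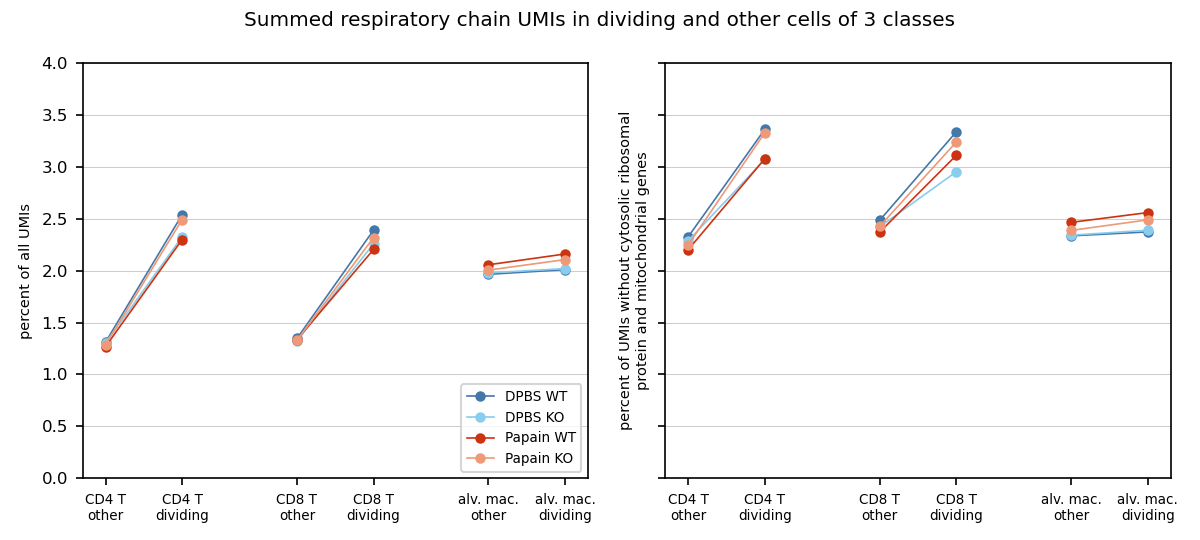
Summed respiratory chain genes as a percent of all UMIs (left) and of UMIs without cytosolic ribosomal protein and mitochondrial genes (right) in other and dividing cells of 3 classes, with 1 line per library. CD4 T cells go from 1.27% to 1.31% in other cells to 2.30% to 2.54% in dividing cells, and alveolar macrophages stay near 2%.

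Of 71 genes, 41 were counted at least 2-fold higher with no overlap in dividing CD4 T-like cells, where 21.8% of all 8794 genes were, and 2 lower, where 8.15% were. Ndufb7 had the highest ratio (1.95 on the log2 scale), with 86.5 to 93.8 CPM in other cells and 301 to 376 CPM in dividing cells. It was followed by Cox5b (1.89), Cox5a (1.81), Uqcr11 (1.71) and the core subunit Ndufs8 (1.69), while Atp5g3 had 1.58 and the catalytic subunit Atp5b 1.48. The 2 lower genes were Cox7a2l (-1.252), at 271 to 425 CPM in dividing against 740 to 778 CPM in other cells, and Atp5s, at 0 to 3.06 CPM in dividing against 5.23 to 8.66 CPM in other cells. Ndufa6 (-0.61) and Uqcrh (-0.39) were also lower without reaching 2-fold.

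In CD8 T-like cells 30 of 71 genes were counted as higher in dividing cells, where 16.0% of all genes were, led by Cox5a (1.55), Ndufb6 (1.501), Ndufb7 (1.49) and Cox5b (1.48), with Cox7a2l lowest at -0.83. In alveolar macrophage-like cells 0 of 74 were, where 5.71% of all genes were. By complex, the log2 ratios in CD4 T-like cells were 0.95 for I, 0.63 for III, 0.87 for IV and 0.97 for V. Dividing CD4 T-like cells were deep, with a median of 26264.5 to 34330 UMIs against 5318 to 6287 in other cells. The B cell gene Cd79a was at 127, 0, 5.36 and 150 CPM in them, against 5.23 to 9.19 CPM in other CD4 T-like cells, and the macrophage gene Marco at 0.813 CPM or less. Whether joined cells had a part in the ratio was not tested beyond these values. DPBS WT and Papain KO, with the higher Cd79a values, had the higher shares, at 2.54% and 2.49%. DPBS KO and Papain WT, with the lowest Cd79a values, were at 2.33% and 2.30%.

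To ask whether loss of Ift20 in T cells went with a change in these genes, KO and WT were compared within each treatment. In CD4 T-like cells after DPBS the summed genes were lower in KO, with 1.35% of UMIs against 1.53% and a log2 ratio of -0.17 (-0.19 to -0.16). Complex V had the largest difference (-0.22), then complex IV (-0.17) and complex I (-0.16), and complex III the smallest (-0.082). For single genes with 100 UMIs or more in the 2 libraries, a level at least 25% higher or 20% lower, the same fold both ways, was taken as the mark. Past it downward were 14 of 70 genes, a share close to the 21.6% of all 7201 genes, and upward 0, where 10.2% of all genes were. The 14 were Cox5a, Ndufs8, Ndufv1, Uqcr11, Cox6b1, Ndufv2, Ndufs5, Ndufb7, Atp5b, Ndufa12, Atp5g3, Atp5c1, Ndufa11 and Cox5b. Cox5a was lowest, at 266.5 CPM in WT and 186 CPM in KO (-0.52, -0.64 to -0.40), with 254 and 226 CPM after papain. The highest were Ndufb4 (0.19), Ndufa6 (0.08) and Cox7a2l (0.07).

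The number of dividing cells also differed between these 2 libraries, and its part in the ratio was not tested beyond the values given here. Dividing cells held 17.5% of the CD4 T-like UMIs in DPBS WT and 4.89% in DPBS KO, and the summed 8 genes of the dividing-cell list were at 1524 CPM in WT and 762 CPM in KO. Without the clusters of dividing cells the log2 ratio of the summed genes was -0.0079 (-0.024 to 0.0077), and 0 of 70 genes were past the mark downward, where 12.4% of all genes then were. As a mean over cells, in which deep cells do not weigh more, it was -0.029. The dividing clusters are small, at 35 and 9 cells, and how far their number differs between mice of 1 genotype cannot be told from 1 library each.

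After papain, CD4 T-like cells of KO and WT hardly differed. The shares were 1.46% in Papain WT and 1.44% in Papain KO, with a log2 ratio of -0.022 (-0.036 to -0.0088), and 0 of 70 genes were past the mark downward, where 18.1% of all 7514 genes were. The lowest genes were Ndufb6 (-0.30), Ndufs1 (-0.20) and Atp5g3 (-0.19). Without dividing clusters the ratio was 0.020 (0.0040 to 0.035), the opposite sign at a similar size. CD8 T-like cells, which also lost Ift20, had ratios of -0.031 (-0.044 to -0.017) after DPBS and 0.015 (0.0016 to 0.029) after papain. Without dividing clusters the latter turned to -0.0081 (-0.023 to 0.0066), and it was 0.090 with TMM factors, another scaling of library size. In the T sub-cluster number 4 the ratios of KO to WT were 0.063 (0.032 to 0.093) and -0.013 (-0.037 to 0.011). Between papain and DPBS, CD4 T-like cells had -0.062 (-0.075 to -0.050) in WT on the log2 scale, 0.088 (0.073 to 0.10) in KO, and -0.048 and -0.021 without dividing clusters.

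**Figure D5:**
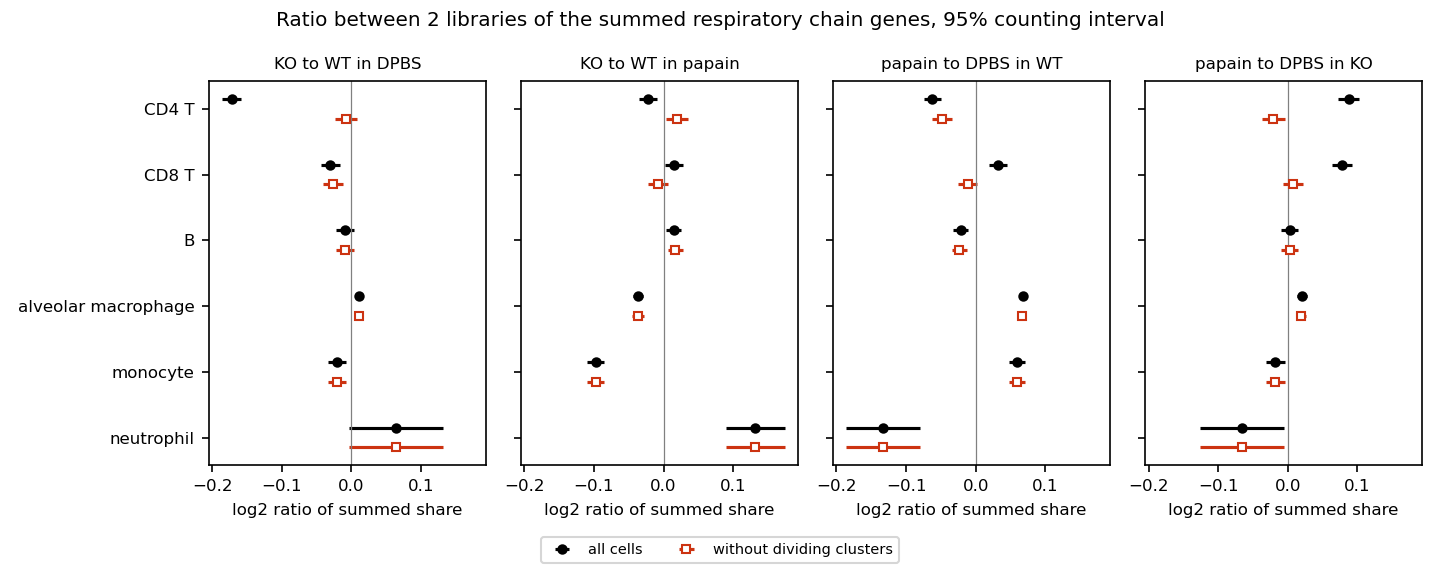
Log2 ratio of the summed respiratory chain share between 2 libraries in 6 classes, for KO to WT in DPBS and in papain and papain to DPBS in WT and in KO, with 95% counting intervals as horizontal bars. Filled circles take all cells and open squares leave out clusters of dividing cells, which takes the CD4 T value in DPBS from -0.17 to -0.0079.

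Gene groups around the respiratory chain were read in the same CD4 T-like comparison after DPBS, beside the 21.6% of all genes past the mark downward. In this comparison the dividing-cell genes were at 1524 CPM in WT and 762 CPM in KO, with 8 of 8 past the mark downward, and their part in the other groups was not tested. Complex II and the carriers (Sdha to Sdhd, Cycs and Cyc1) had a log2 ratio of -0.25, with 3 of 6 genes past the mark downward. The 39 assembly factors had -0.18, with 13 of 30 tested genes downward and 1 upward, the mitochondrial ribosomal proteins -0.18, with 21 of 74 downward, and the citric acid cycle enzymes -0.33, with 7 of 12. Glycolysis genes had -0.41, with 7 of 13, and Atpif1, the inhibitor of ATP synthase, -0.74. The 13 mitochondrially encoded genes had 0.076 and the cytosolic ribosomal proteins 0.06, and the 13 regulators of mitochondrial genes 0.21. After papain these groups, Atpif1 (-0.25), the regulators (-0.13) and the dividing-cell genes (-0.42) apart, were between -0.07 and 0.06. No gene of the cardiac muscle, stromal, epithelial or red cell lists reached 100 UMIs in these comparisons.

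In alveolar macrophage-like cells, the sum differed little with papain or genotype. The share was 1.97% and 1.99% after DPBS and 2.07% and 2.015% after papain. Papain against DPBS gave 0.068 on the log2 scale (0.062 to 0.074) in WT and 0.021 (0.014 to 0.028) in KO. Of 74 genes in WT, 2 were past the mark upward, Cox6a2 and Atp5k, where 7.74% of all 10077 genes were. Of the 193 Cox6a2 UMIs in Papain WT, 142 were in 25 cells for which the class name is not certain. Atp5k, a small membrane subunit, went from 179 to 229 CPM (0.36, 0.30 to 0.42). Of 73 genes in KO, 2 were past it, Atp5s and Cox7a1, where 6.77% of all genes were, and the intervals of both included 0. Cox6b2 was lower after papain in both genotypes, at -0.26 in WT and -0.16 in KO. The comparison in WT shares no library with that in KO, while each shares a library with every comparison of KO to WT.

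Monocyte-like cells had 1.64% and 1.62% after DPBS and 1.71% and 1.60% after papain. KO lay below WT after papain by -0.098 (-0.11 to -0.085), and 8 of 71 genes had a ratio above 0. The clusters of the class differed. Cluster 5, with classical monocyte genes, had 1.73% and 1.75% after DPBS and 1.85% and 1.71% after papain. Cluster 9, with nonclassical monocyte genes, had 1.46% and 1.40%, then 1.39% and 1.40%, so KO was not below WT after papain there. Past the mark downward were 2 of the 71, where 11.6% of all 7746 genes were. They were Cox6b2 (-0.61, -1.16 to -0.07), with 96 UMIs in WT and 43 in KO, and the complex I subunit Ndufv3 (-0.33), at 102 and 81.3 CPM. After DPBS the difference was -0.020 (-0.034 to -0.0073), and with TMM factors it turned to 0.030.

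Neutrophil-like cells were few and shallow, and fewer genes reached 100 UMIs. KO lay above WT after papain by 0.13 (0.089 to 0.17), with 11 of 45 genes past the mark upward, where 13.9% of all 2414 genes were. Cox8a, at 706, 795, 560 and 786 CPM in the 4 libraries, was among them (0.49, 0.34 to 0.64), as were Ndufa13 (0.54) and Ndufb10 (0.56). Past it downward were 2 of the 45, Uqcrh (-0.47) and Cox7a2l (-0.33), where 13.9% of all genes were. In WT, papain lay below DPBS by -0.13 (-0.19 to -0.080), with 10 of 41 genes past it downward, where 13.3% of all 2061 genes were, led by Ndufs5 (-0.69), Atp5e (-0.55) and Ndufb8 (-0.51). Both comparisons use the Papain WT library, which had the lowest share of the 4.

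Cluster 14 showed the widest difference with papain among all the classes tested with 70 or more genes. Its share was 1.56% in the 108 WT and 1.54% in the 76 KO cells after DPBS, and 1.85% in the 248 WT and 1.60% in the 128 KO cells after papain. Papain WT thus stood above the other 3. The log2 ratio of papain to DPBS in WT was 0.25 (0.23 to 0.26), with 20 of 71 genes past the mark upward, where 19.0% of all 5993 genes were, and the ratio of KO to WT after papain was -0.20 (-0.22 to -0.19), with 13 of 71 downward, where 15.3% were. Atp5g3 had 152, 151, 241 and 149 CPM in the 4 libraries in the order above, Cox5a 300, 318, 444 and 339 CPM, and Atp5k 132, 141, 210 and 158 CPM. The makeup of this unnamed cluster may differ between libraries and its part in the ratios was not tested. B-like cells had log2 ratios between -0.022 and 0.015 in the 4 comparisons of the sum.

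The innate lymphocytes were few. ILC2-like cells, a source of type 2 cytokines after papain, had 1.60% (70 cells) and 1.58% (50 cells) after DPBS, and 1.79% (85 cells) and 1.57% (80 cells) after papain. Papain WT was thus the highest here too, with papain over DPBS at 0.15 (0.11 to 0.20) on the log2 scale for WT, at -0.0048 (-0.059 to 0.049) for KO, and KO over WT after papain at -0.18 (-0.23 to -0.14). Medians over cells, in which deep cells do not weigh more, were closer, at 1.57%, 1.58%, 1.66% and 1.55%. NK-like cells went the other way, with 1.87% and 1.98% after DPBS and 1.74% and 1.86% after papain.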

How the data were processed

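UMI counts per gene and barcode for 4 lung CD45.2+ libraries were used as deposited by the authors; per the submitters' processing notes these were made with Cell Ranger against mm10, and versions are not given in the sources used here. Barcodes with more than 200 genes and under 15% mitochondrial UMIs were kept. Of these, the barcodes with the highest Scrublet scores in each library (scanpy 1.11.5) were removed as doublets, 1635 in all. Their number was fixed beforehand from a rate of 0.8% per 1000 barcodes. Libraries were integrated and clustered with Seurat 5.3.0 in R 4.3.3 (2000 genes, 30 dimensions, resolution 0.8), and clusters were named from marker genes by a scoring rule set after the clusters were seen. Clusters in which the 8 dividing-cell genes summed to over 3000 CPM counted as dividing. UMIs were summed per class and library and divided by all UMIs of the class, with no division by gene length, since each molecule gives 1 tag at its 3′ end.

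With 1 library per group no test was possible. Ratios carry exact conditional binomial 95% intervals and shares or levels exact Poisson 95% intervals (scipy 1.17.1), which cover counting error only; a count of 0 was set to a floor of 3 UMIs for a fold. Genes needed 100 UMIs in the samples compared, and were counted where at least 25% higher or 20% lower between libraries or 2-fold apart without overlap between lineages. The fold mark between libraries and the ratio intervals were tested on simulated Poisson counts modelled on CD4 T-like cells after DPBS. Clustering, naming, doublet removal and the comparison of lineages were not tested in this way. Positions came from GENCODE M21, and 63 members matched a RefSeq promoter by symbol or gene ID.

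The members, gene lists and rules were chosen with earlier results of these data known. Genes named are the 3 highest of each complex, the isoform families, up to 3 highest and lowest in each contrast, the 5 with the largest ratio between lineages, and those under 100 UMIs; others were named for their role or after their values were seen. The values of 1 member are not reported here. Alternatives were another denominator, a mean over cells, a 10% mitochondrial limit, no doublet removal, gating by transcripts, no integration, no dividing clusters, other UMI minimums and TMM factors (edgeR 4.0.16).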

Additional observations from a re-analysis of the deposited data

Results flagged for a closer look

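Among the 6 main classes, the ratio of the summed respiratory chain genes had opposite signs in 2 groups with both counting intervals leaving out 0 in 4 cases. Each library was the only one of its group, so the differences were not tested. In CD4 T-like cells the log2 ratio of papain to DPBS was 0.15 higher in KO (0.088) than in WT (-0.062). In CD8 T-like cells KO over WT was 0.046 higher on the log2 scale after papain (0.015) than after DPBS (-0.031). In alveolar macrophage-like cells the ratio of KO to WT was lower after papain (-0.037) than after DPBS (0.010), by -0.047. In monocyte-like cells the ratio of papain to DPBS was lower in KO (-0.018) than in WT (0.059), by -0.077. The opposite signs were lost in several of these under another processing. Without the clusters of dividing cells both CD4 T-like ratios were negative (-0.048 in WT and -0.021 in KO), as were both CD8 T-like ratios (-0.027 after DPBS and -0.0081 after papain). With TMM factors both alveolar macrophage-like ratios were negative (-0.016 after DPBS and -0.13 after papain).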

How the results depend on the processing

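No paired analysis was possible because each group held 1 library, so that KO was not paired to WT nor papain to DPBS, while lineages and dividing cells were compared within each of the 4 libraries. Of 64 alternative values for 7 ratios, 35 stayed within the counting error or library spread of the value reported, 24 moved beyond it and 5 changed sign. The CD4 T-like ratio of KO to WT after papain turned from -0.022 to 0.011 with the denominator without ribosomal protein and mitochondrial genes, 0.0063 as a mean over cells, 0.020 without dividing clusters and 0.059 with TMM factors, and was -0.056 without doublet removal and -0.057 by transcript gating. That after DPBS moved from -0.17 to -0.13, -0.029, -0.0079 and -0.087 under the first 4 of these, and to -0.11 without doublet removal and -0.11 by gating. Alveolar macrophage-like over CD4 T-like cells turned from 0.48 to -0.024 with the other denominator, and was 0.60 as a mean over cells and 0.63 without dividing clusters. Monocyte-like over B-like cells went to 0.10 with the other denominator. Neutrophil-like over alveolar macrophage-like cells went to -1.35 with it, -0.90 without doublet removal and -0.92 by gating. Papain to DPBS in WT alveolar macrophage-like cells (0.068) was 0.080 with the other denominator, 0.036 over cells, 0.075 without doublet removal, 0.079 by gating, 0.027 without integration, 0.11 with TMM factors, 0.059 without members that have a pseudogene copy and 0.056 without cluster 18, and in KO (0.021) 0.029 with the other denominator and 0.0042 with TMM factors.

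The 14 genes lower in DPBS KO CD4 T-like cells became 5 of 70 with TMM factors (15.4% of all genes) and 0 of 70 without dividing clusters (12.4%), and the 0 after papain became 1 of 73 with no UMI minimum (26.1%). In alveolar macrophage-like cells the 2 genes higher in WT became 1 of 71 at a minimum of 400 UMIs (5.22% of all genes), and the 2 in KO became 0 of 71 there (3.28%) and 1 of 73 with TMM factors (6.19%). In neutrophil-like cells the 11 of 45 were 4 of the 13 genes that reached 400 UMIs (9.43% of all genes), and the 10 of 41 were 17 of 70 with no minimum (33.2%), 2 of the 6 that reached 400 UMIs (7.36%) and 3 of 41 with TMM factors (10.04%). The cause was not tested beyond each alternative's construction. The alternatives on pseudogene copies, cluster 18 and the count without dividing clusters were chosen after seeing the data. Leaving out members with a -ps copy among the genes counted gave no value, since none of the 72 -ps symbols belongs to a member.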

Other observations

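Outside cluster 27, Cox6a2 was found in a few cells of the clusters named alveolar macrophage-like. The genes set beside it here were chosen after their values were seen. Its level in the class was 0.612 CPM in WT and 0.590 CPM in KO after DPBS, and 11.4 CPM (9.85 to 13.1) in WT and 5.29 CPM (4.02 to 6.84) in KO after papain, from 282 UMIs in 95 of 4310 cells. Cells with 3 or more Cox6a2 UMIs numbered 3, 2, 25 and 5 in these libraries, and 1 of the 35 held Siglech, the lectin found in all cells of cluster 27. In Papain WT, 23 of the 25 belonged to cluster 2, as did 5 of 5 in Papain KO.

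The 25 Papain WT cells had 2705 CPM of Apoe, against 187 CPM in the 991 cells of the class with no Cox6a2 UMI. Apoe, the lipid carrier, was one of the interstitial macrophage markers used for naming clusters. Chchd10, a mitochondrial intermembrane space protein, was at 685 against 106 CPM, and Fstl1 at 359 against 18.7 CPM. The scavenger receptor Marco, one of the alveolar macrophage markers used for naming, was at 44.0 against 286 CPM. The 25 cells were named by cluster, and by Apoe and Marco the name alveolar macrophage-like is not certain for them. In Papain KO the 5 cells had 659 against 77.6 CPM of Apoe, 1113 against 54.7 CPM of Chchd10 and 0 against 258 CPM of Marco. After DPBS the 3 such cells of WT and the 2 of KO held no Apoe UMI, against 43.3 and 31.0 CPM in cells with no Cox6a2 UMI, and their Chchd10 was at 20.3 against 46.1 CPM in WT and at 276 against 50.1 CPM in KO. Their Marco was low too, at 10.2 against 304 CPM in WT and 25.1 against 224 CPM in KO. The 3 DPBS WT cells held 24 Siglech UMIs, and such cells of the other libraries held none. No UMI of the heart muscle gene Actc1 or Tnnt2 was found in the 25 and 5 papain cells. Among removed doublets, 24 barcodes held 80 Cox6a2 UMIs. These cells come from 1 library per group, and the part of joined cells in these values was not tested.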
